A study of Mus musculus with 6 samples.

Results

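The 33 genes described here encode tubulins and proteins that bind, stabilise or destabilise microtubules in neurons. They were chosen by symbol for their known roles, and all 33 were found among the 35274 rows of the deposited table. All 33 also passed the filter on low values (6-library mean no lower than 1 TPM), as did 14518 genes in all. TPM is transcripts per 1000000, an abundance corrected for transcript length, so levels of different genes can be set side by side.

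RNA came from mouse dentate neuroepithelium labelled embryonic day 14, the wall of the hippocampal ventricle that gives rise to the dentate gyrus. Of the 6 libraries, 2 were wild type (WT), 2 heterozygous for a floxed Sox11 allele (SOX11f/+, called haplodeficient) and 2 homozygous for it (SOX11f/f, called homodeficient), written WT, Het and Hom where values are listed. A floxed allele is lost only where a Cre recombinase acts, and the sources used here name no Cre line. They also do not say whether the libraries are separate embryos, so each p-value reflects only how far these libraries differ among themselves, and that spread can be technical. The title of the series gives progenitor polarity and mossy fibre projections as its concern. Sox11, a transcription factor gene of newborn neurons, stood at 192 and 130 TPM (WT), 56.1 and 50.1 TPM (Het) and 5.23 and 5.06 TPM (Hom), in the order of the labelled genotypes.

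Microtubules are hollow polymers of alpha and beta tubulin dimers, and several genes encode near-identical forms of each. Young neurons build them at a high rate for migration and axon growth, using Tuba1a, Tubb2b, Tubb3 and Tubb5. Doublecortin, stathmins, Map1b and the collapsin response mediator proteins (Crmp1 and the Dpysl genes) regulate these polymers while neurites extend. Maturing neurons make more Tuba4a, Tubb4a, Tubb2a, Map1a and Map6. From that background the members were sorted into 11 developmental genes, 5 mature genes, 9 neuronal genes used at both stages and 8 broadly expressed genes. In bulk tissue a lower level of a neuronal transcript cannot be told apart from fewer cells of that type.

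The libraries differed in more than Sox11. Ttr, the main product of choroid plexus, stood at 11259 and 6421 TPM in Het replicate 1 and Hom replicate 1 and between 2.04 and 184 TPM in the other 4 libraries. The defining genes of mature cells were present although the label is embryonic. Camk2a, a synaptic kinase, lay between 121 and 496 TPM and Gfap, an astrocyte filament, between 268 and 576 TPM. The 10 mature neuron markers summed to 2001 and 3058 TPM in WT, 1983 and 3206 in Het, and 3006 and 3611 in Hom libraries. Microglia genes summed to 184 and 220 TPM in WT and to between 297 and 456 TPM in the 4 floxed libraries. Myelin genes summed to between 46.9 and 180 TPM, with at most 0.74 TPM for Mobp and 2.03 TPM for Mog. The part of these cell types in the members' levels was not tested.

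Together the 33 genes took 29983 and 33648 of each 1000000 TPM in WT, 26635 and 27474 in Het, and 24786 and 23301 in Hom libraries. Both Hom libraries were below both Het ones, and those below both WT ones. Tuba1a alone accounted for 9601 ± 901 TPM in WT (SD, n = 2) and ranked 7 among all genes there. Tubb2b ranked 16, Stmn1 19, Tubb2a 38, Tubb5 41 and Tubb3 54. At the other end stood Tuba1c with 21.3 ± 8.03 TPM and Tubb6 with 10.1 ± 2.45 TPM (SD, n = 2 each).

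**Figure D1:**
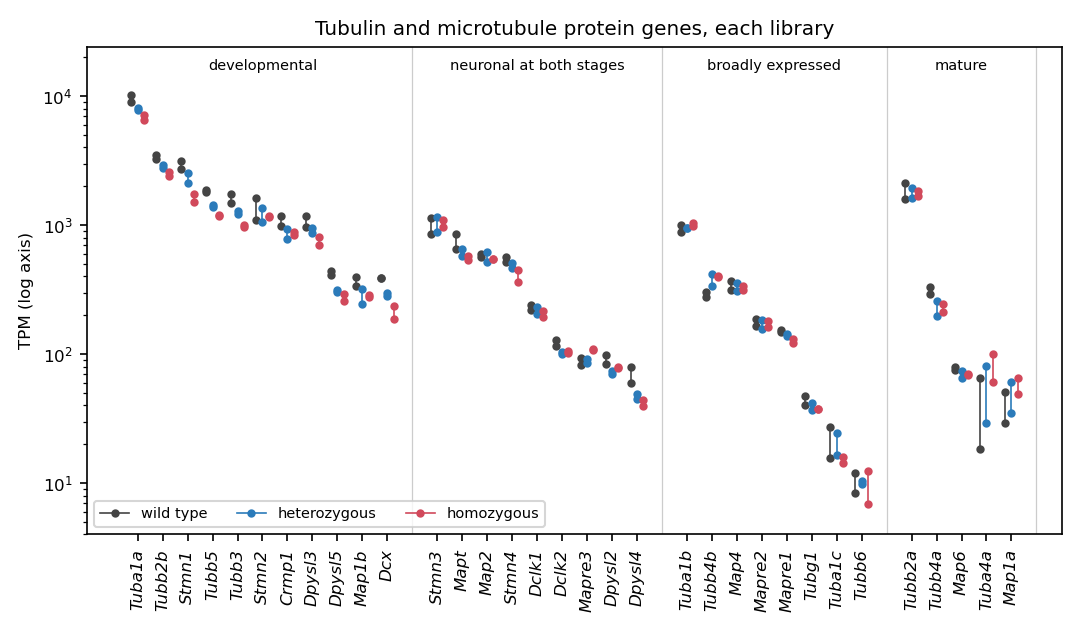
TPM of each member (log axis) in WT, Het and Hom libraries. Points are the 2 libraries of a genotype, joined by a line, and members are grouped by class. Tubb5 and Dcx step down without overlap, while the points of Tuba4a and Map1a spread widely within each genotype.

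No member passed an adjusted p of 0.05 in any of the 3 pairwise comparisons (limma over 14518 genes with Benjamini-Hochberg adjustment). Few genes of the whole table did, 0.0413% for Hom against WT, 0.0344% for Het against WT and 0.0138% between both floxed genotypes. Levels and differences below are therefore given as measured. The difference of a gene is on the scale of log2(TPM + 1), with limma's standard error (SE).

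Of the 4 classes of members, the developmental genes had the median difference between Hom and WT libraries farthest from 0. All 11 stood lower in Hom libraries, with a median log2 difference of -0.51 and a range from -0.89 to -0.21. The median over all genes tested was -0.04. The 5 mature genes had a median of -0.05 and ranged from -0.45 to 1.15. The 9 genes used at both stages had a median of -0.20, and the 8 broadly expressed ones a median of -0.08.

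In 21 of the 33 genes both Hom libraries lay below both WT ones, a pattern that 30.7% of all genes tested showed. For developmental genes the count was 10 of 11, the exception being Stmn2. In 2 genes, Tubb4b and Mapre3, both Hom libraries lay above, against 23.6% of all genes. At an unadjusted p under 0.05, 16 of the 33 were lower and 2 higher, where 9.8% and 8.35% of all genes were. After rescaling by trimmed mean of M values (TMM), both Hom libraries lay below both WT ones in 17 members in place of 21. Of all genes 26.2% did so there. These shares describe a list chosen with earlier results known and carry no test.

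Dcx encodes doublecortin, which binds the microtubules of migrating neurons, and is on the minus strand of chromosome X from 143855842 to 143933311 (GRCm38). It stood at 388 and 391 TPM in WT, 284 and 296 in Het and 236 and 188 in Hom libraries. The genotypes did not overlap and followed the number of floxed alleles. The Hom difference from WT was -0.89 (SE 0.12, limma adjusted p = 0.061), the lowest among the members.

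Tubb5 encodes a beta tubulin of progenitors and young neurons, on chromosome 17 from 35833921 to 35838306 on the minus strand. Its levels were 1871 and 1808 TPM in WT, 1437 and 1388 in Het and 1181 and 1193 in Hom libraries. Libraries of 1 genotype were close together and the 3 genotypes stood apart, with a Hom difference of -0.63 (SE 0.09, limma adjusted p = 0.061).

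Tubb3, the beta tubulin used as a marker of neurons, is on the plus strand of chromosome 8 from 123411424 to 123422015. It stood at 1471 and 1728 TPM in WT, 1227 and 1274 in Het and 1003 and 965 in Hom libraries, again without overlap. The Hom difference was -0.70 (SE 0.11, limma adjusted p = 0.0682). Dpysl5, a collapsin response mediator of growing neurites, is on the plus strand of chromosome 5 from 30711564 to 30799375. It stood at 411 and 439 TPM in WT, 303 and 315 in Het and 294 and 260 in Hom libraries. That gave a Hom difference of -0.62 (SE 0.10, limma adjusted p = 0.0682).

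Stmn1 encodes stathmin, which binds free tubulin and is made by progenitors as well as neurons, on the plus strand of chromosome 4 from 134468320 to 134473843. It stood at 3128 and 2719 TPM in WT, 2539 and 2129 in Het and 1752 and 1508 in Hom libraries. The Hom mean was 55.8% of the WT mean, and the log2 difference was -0.84 (SE 0.14, limma adjusted p = 0.070). Proliferation genes, 10 in number, summed to 745 and 545 TPM in WT, 584 and 492 in Het and 442 and 474 in Hom libraries. Their part in the levels of Stmn1 and Tubb5 was not tested.

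Tuba1a, the main alpha tubulin of developing neurons, stood at 8963 and 10238 TPM in WT, 8033 and 7839 in Het and 7119 and 6537 in Hom libraries. Its Hom mean was 71.1% of the WT mean (log2 difference -0.49, SE 0.13, limma adjusted p = 0.154). Tubb2b stood at 3240 and 3495 TPM in WT, 2915 and 2757 in Het and 2576 and 2415 in Hom libraries. Its difference was -0.43 (SE 0.11, limma adjusted p = 0.13). Both genes kept the genotypes apart without overlap, and neither passed.

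In the Crmp family, whose proteins couple tubulin to guidance signals, all 5 genes lay below WT without overlap in Hom libraries, as 30.7% of all genes did. Dpysl4 went from 79.1 and 59.4 TPM in WT to 44.3 and 39.5 in Hom libraries (log2 difference -0.70, SE 0.15, limma adjusted p = 0.113). Dpysl3 went from 973 and 1173 to 802 and 704 TPM (-0.51, SE 0.13, limma adjusted p = 0.129). Crmp1 and Dpysl2 had Hom means at 79.3% and 86.5% of WT.

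The stathmins were not alike. Stmn2, a membrane-bound stathmin of growing axons, stood at 1104 and 1635 TPM in WT and 1153 and 1165 in Hom libraries, so the groups overlapped. Stmn3 stood at 859 and 1132 TPM in WT and 1092 and 974 in Hom libraries, also overlapping. Stmn4 did not overlap, with 519 and 562 TPM in WT and 448 and 361 in Hom libraries. As a share of summed stathmin TPM, Stmn1 made up 55.8% and 45.0% in WT, 51.4% and 41.5% in Het and 39.4% and 37.6% in Hom libraries.

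**Figure D2:**
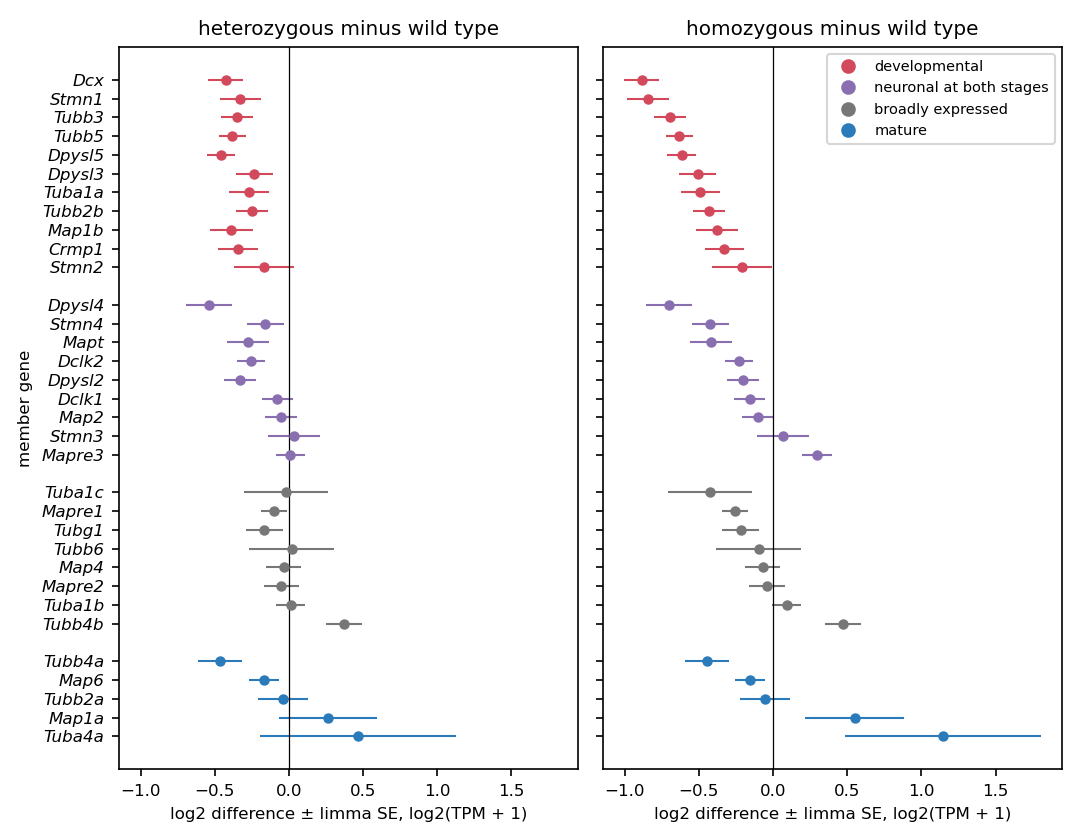
Difference of each member from WT on the log2(TPM + 1) scale (x axis) in Het and Hom libraries. Points are limma estimates over 2 libraries a genotype and bars are ± 1 SE. All 11 developmental genes lie left of 0 in both panels, and the mature genes lie on both sides.

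Promoters were searched because Sox11 is an HMG-box factor. The core words ACAAAG and ACAATG of Sox proteins were sought on both strands in the 250 bases before each RefSeq start (GRCm38.p6). Of the 33 members 21 matched the promoter table by symbol. A word was present in 8 of these 21 (38.1%), in 28.2% of the 27025 genes with a promoter and in 20.5% of the 10839 tested genes with one. It was present in 5 of 7 developmental genes (Crmp1, Dcx, Dpysl5, Tubb3 and Tubb5), in 3 of 5 genes used at both stages (Dclk1, Dclk2 and Stmn3), and in 0 of 4 mature and 0 of 5 broadly expressed genes. Of the members lower at each step from WT to Het to Hom without overlap, Dcx, Dpysl5, Tubb3 and Tubb5 held a word. Tuba1a and Mapre1 held none, and Dpysl3, Dpysl4, Stmn1, Stmn4 and Tubb2b had no promoter entry. Genes with several starts have more windows, and a match is a description of letters, not a binding site.

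The bases before the annotated first exon of Tubb3, Tubb5 and Dpysl5 are shown 5′ to 3′ on the gene's strand, because these are members with a small p whose window holds a word there. Capitals mark the words, here all on the strand opposite to the gene. The stretches are chr8:123411303-123411423 (plus strand), chr17:35838307-35838551 (minus strand) and chr5:30711314-30711563 (plus strand). The word of Dcx and a further one of Tubb3 fall inside annotated exons and are not shown.
Tubb3: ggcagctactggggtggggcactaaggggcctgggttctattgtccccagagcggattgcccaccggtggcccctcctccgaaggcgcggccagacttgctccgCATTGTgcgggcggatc
Tubb5: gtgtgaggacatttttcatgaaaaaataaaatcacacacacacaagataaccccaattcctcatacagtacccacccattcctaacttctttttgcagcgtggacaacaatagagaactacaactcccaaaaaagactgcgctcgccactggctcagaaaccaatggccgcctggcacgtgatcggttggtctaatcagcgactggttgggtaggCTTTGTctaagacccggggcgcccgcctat
Dpysl5: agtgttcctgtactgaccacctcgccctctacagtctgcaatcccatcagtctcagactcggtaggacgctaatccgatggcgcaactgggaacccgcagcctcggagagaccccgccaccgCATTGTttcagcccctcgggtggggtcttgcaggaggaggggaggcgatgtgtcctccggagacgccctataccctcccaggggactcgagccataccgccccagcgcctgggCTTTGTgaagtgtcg

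The mature members differed in direction. Tuba4a, an alpha tubulin of mature neurons on chromosome 1 from 75214228 to 75219865, stood at 18.4 and 65.5 TPM in WT, 29.2 and 80.7 in Het and 61.0 and 100.6 in Hom libraries. The genotypes overlapped, with a 3.57-fold gap between both WT libraries and a Hom mean at 193% of the WT mean. The Hom difference of 1.15 had an SE of 0.66 (limma adjusted p = 0.390). Tuba4a shares 1379 bases of its longest transcript with the neighbouring Stk16, whose level reached 113 TPM, so reads there may be split between both.

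Map1a, the microtubule-associated protein of mature dendrites, stood at 29.1 and 50.4 TPM in WT, 35.2 and 60.5 in Het and 48.7 and 65.6 in Hom libraries. These overlapped too (log2 difference 0.55, SE 0.33, limma adjusted p = 0.406). Tubb4a, a beta tubulin of mature neurons and oligodendrocytes, was lower instead. It stood at 294 and 330 TPM in WT, 197 and 257 in Het and 212 and 245 in Hom libraries (-0.45, SE 0.15, limma adjusted p = 0.201). Tubb2a overlapped between all genotypes, and Map6 had a Hom mean at 89.6% of WT. In both Tubb4a and Map6, every floxed library lay below both WT ones. Of all genes, 28.9% did so in Het and 30.7% in Hom libraries.

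Mature members were set beside markers of mature neurons that are not microtubule genes. Relative to the WT mean, the mean log2 level of the 5 mature members was -0.32 and 0.32 in WT, -0.29 and 0.31 in Het and 0.09 and 0.33 in Hom libraries. The 10 mature neuron markers, among them Camk2a, Slc17a7 and Snap25, stood at -0.32 and 0.32, at -0.34 and 0.40, and at 0.30 and 0.59. By this mean log2 measure, the library of each genotype with the higher mature neuron markers also had the higher mature members. Summed TPM of the mature members did not follow this in Hom libraries, with 2243 in replicate 1 and 2170 in replicate 2. The part of mature neuron content in these values was not tested.

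For the 11 developmental members the same measure gave -0.08 and 0.08 in WT, -0.37 and -0.29 in Het and -0.50 and -0.60 in Hom libraries, without overlap. Markers of newborn neurons that are not microtubule genes (12 genes, among them Neurod1, Elavl3 and Ina) stood at 0.05 and -0.05, at -0.41 and -0.36, and at -0.40 and -0.50. They too were lower in both floxed genotypes, but Het and Hom libraries overlapped. Of these 12 markers, 10 had a Hom difference below 0, with a median of -0.48. The part of newborn neuron content in the levels of the developmental members was not tested.

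**Figure D3:**
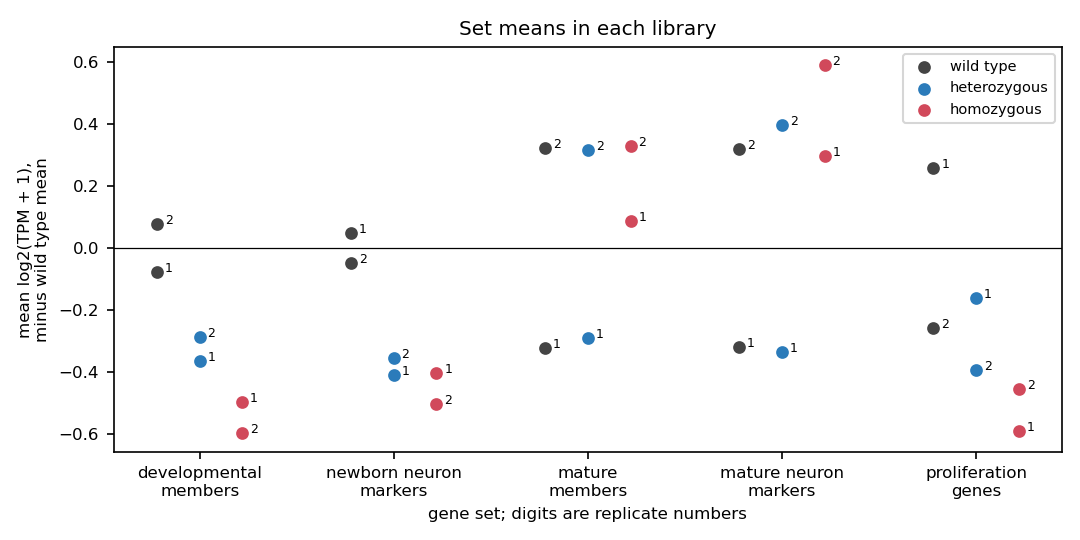
Mean log2(TPM + 1) of 5 gene sets (x axis) in each library, minus the mean of the WT libraries (y axis). Points are libraries, coloured by genotype, with the replicate number beside them. Developmental members step down over the genotypes, while mature members and mature neuron markers separate replicate 1 from replicate 2 in WT and Het libraries.

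Ratios of a developmental gene to its mature counterpart were taken within each library from TPM + 1. Apart from the added 1, which weighs most on low levels, they do not depend on the scaling of that library. The log2 ratio of Tuba1a to Tuba4a was 8.85 and 7.27 in WT, 8.06 and 6.58 in Het and 6.84 and 6.01 in Hom libraries. The ratio of Map1b to Map1a was 3.50 and 2.95 in WT, 2.76 and 2.38 in Het and 2.53 and 2.06 in Hom libraries. For both, WT was higher than Hom without overlap. Het libraries overlapped WT and Hom for the first ratio and Hom for the second. Tubb2b to Tubb2a gave 1.03 and 0.72 in WT, 0.84 and 0.50 in Het and 0.48 and 0.51 in Hom libraries. Tubb3 to Tubb4a gave 2.32 and 2.39, then 2.63 and 2.30, then 2.24 and 1.98. With 2 libraries a side, the smallest two-sided p of an exact permutation test is 0.33, so none was used.

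The make-up of the tubulin pool was then set out by gene. Tuba1a made up 90.6% and 90.4% of summed alpha tubulin TPM in WT, 89.0% and 88.2% in Het and 87.1% and 85.1% in Hom libraries. Tuba1b, a broadly expressed alpha tubulin, took 8.96% and 8.84% in WT, 10.4% and 10.7% in Het and 11.9% and 13.4% in Hom libraries. Neither share overlapped between genotypes. The level of Tuba1b itself was 943 ± 80.7 TPM in WT and 1005 ± 40.9 TPM in Hom libraries (SD, n = 2 each). Tuba1a and Tuba1b are 98.3% identical over 1357 bases, Tuba1b and Tuba1c 99.4% over 1307 bases, and Tubb2a and Tubb2b 96.4% over 1350 bases. How reads that fit both were divided is not given in the sources used here, which makes the levels of these genes uncertain.

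Among beta tubulins, Tubb3 made up 16.8% and 17.7% in WT, 15.7% and 16.0% in Het and 13.9% and 13.9% in Hom libraries. Tubb2a took 18.04% and 21.8% in WT, 20.8% and 24.5% in Het and 25.6% and 24.4% in Hom libraries. Tubb2b was the largest component in all 6 libraries, between 34.6% and 37.2%.

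**Figure D4:**
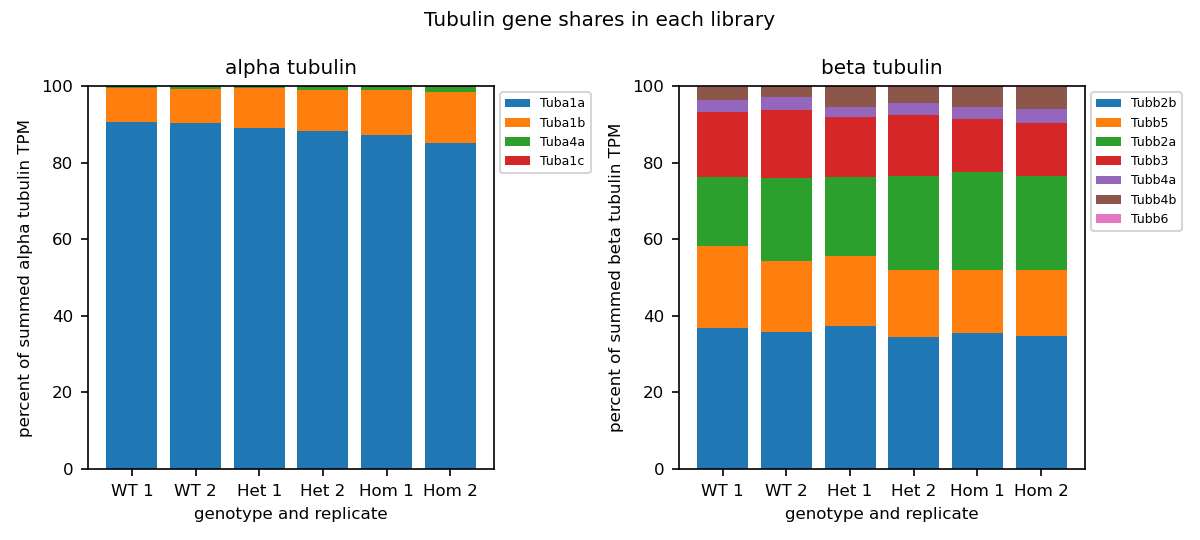
Share of each gene in the summed alpha tubulin (left) and beta tubulin (right) TPM of each library, in percent, with bars for replicates 1 and 2 of the WT, Het and Hom genotypes. The Tuba1a share steps down from 90.6% to 85.1%, and Tubb4b takes at most 3.43% in WT and at least 4.21% in floxed libraries.

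Tubb4b was the member whose libraries stood above both WT ones without overlap in both floxed genotypes. The means of Tuba4a, Map1a, Stmn3, Mapre3 and Tuba1b were also higher in both, with overlap in at least 1 of them. This beta tubulin, which is also built into motile cilia, had 300 and 279 TPM in WT, 419 and 336 in Het and 399 and 406 in Hom libraries. The Hom difference was 0.47 (SE 0.12, limma adjusted p = 0.137) and the Het one 0.37 (SE 0.12, limma adjusted p = 0.307). Motile cilia genes were higher in the same libraries. The 8 on the list summed to 5.43 and 5.91 TPM in WT, 420 and 128 in Het and 346 and 241 in Hom libraries, and all 8 were higher in every floxed library than in WT. Their part in the level of Tubb4b was not tested. Mapre3, a neuronal end-binding protein, had 82.9 and 94.0 TPM in WT, 85.6 and 92.4 in Het and 107 and 110 in Hom libraries, and both Hom libraries lay above all others.

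Het tissue was compared with WT next, sharing the WT libraries with the comparison above. The developmental genes had a median log2 difference of -0.34 and the mature genes one of -0.04, with -0.06 over all genes. All 11 developmental genes were below 0. In 17 of 33 members both Het libraries were below both WT ones, against 28.9% of all genes, and this count was 11 after TMM rescaling, where 23.2% of all genes did so. Tubb4b alone was above, against 17.1% of all genes. At an unadjusted p under 0.05, 10 members were lower and 1 higher, where 7.63% and 6.42% of all genes were.

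By p, the leading members were Dpysl5 (-0.46, SE 0.10, limma adjusted p = 0.206), Tubb5 (-0.38, SE 0.09, limma adjusted p = 0.230) and Dcx (-0.43, SE 0.12, limma adjusted p = 0.279). Dpysl4, Tubb3, Tubb4a, Tubb4b and Dpysl2 followed, with limma adjusted p between 0.281 and 0.307. Dpysl2 stood at 83.8 and 97.9 TPM in WT, 69.5 and 74.3 in Het and 79.0 and 78.2 in Hom libraries, so its lowest values were Het.

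Between the floxed genotypes the differences were smaller. Developmental genes had a median of -0.22 from Het to Hom libraries, against 0.01 over all genes. Both Hom libraries were below both Het ones in 12 members, against 13.7% of all genes, and above in 3 (Dpysl2, Mapre3 and Tuba1b), against 15.3%. The count of 12 was 24 without Het replicate 1, where 24.8% of all genes did so. It was 14 without Het replicate 2, where 41.9% of all genes did so. At an unadjusted p under 0.05, Stmn1, Dcx, Tubb3 and Tubb5 were lower and Mapre3 higher, where 0.902% and 1.14% of all genes were. The limma adjusted p was 0.9999 for each. Stmn1 differed by -0.52 (SE 0.14), Dcx by -0.46 (SE 0.12) and Tubb3 by -0.35 (SE 0.11).

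Over all 3 genotypes 11 members stepped down with no overlap between neighbouring genotypes, a pattern held by 5.68% of all genes tested. They were the developmental genes Dcx, Dpysl3, Dpysl5, Stmn1, Tuba1a, Tubb2b, Tubb3 and Tubb5, with Dpysl4, Stmn4 and Mapre1. None stepped up, against 1.88% of all genes. Map1b and Crmp1 lay below WT in both floxed genotypes, which overlapped each other. Map1b stood at 339 and 395 TPM in WT, 245 and 319 in Het and 286 and 276 in Hom libraries, and Crmp1 at 990 and 1183, 776 and 938, and 839 and 884 TPM.

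Mapt, which encodes tau, stood at 655 and 845 TPM in WT, 574 and 657 in Het and 580 and 533 in Hom libraries. Its Hom mean was 74.1% of WT, and both Hom libraries lay below both WT ones. Map2, of dendrites, had a Hom mean at 93.2% of WT, Dclk1 89.7%, Dclk2 85.0%, Tubg1, the gamma tubulin of nucleation sites, 85.4%, and Map4 95.1%. The end-binding genes Mapre1 and Mapre2, whose proteins track growing ends, stood at 83.5% and 97.1%. Tuba1c and Tubb6 had the lowest levels of the list, with Hom means at 70.9% and 95.4% of WT, and their libraries overlapped between WT and Hom genotypes.

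Motors, tubulin-modifying enzymes and other microtubule regulators were looked at as a list of 69 further genes, of which 67 passed the filter on low values. None passed in any comparison with limma. For Hom against WT the median log2 difference was -0.13, with 14 lower and 2 higher at an unadjusted p under 0.05 (9.8% and 8.35% of all genes). For Het against WT it was -0.18, with 17 lower and 2 higher (7.63% and 6.42% of all genes). Between the floxed genotypes it was 0.04, with 1 lower and 0 higher (0.902% and 1.14% of all genes). Of genes lower in Hom libraries, those with the smallest p were Vash2, a tubulin detyrosinase (48.2 and 40.2 TPM in WT, 29.7 and 25.1 in Hom libraries), Clasp1, which stabilises growing ends (110.5 and 92.3 against 68.9 and 67.8 TPM), and the kinesin Kif21b (123 and 110 against 83.7 and 82.7 TPM). The smallest p of the genes that stood higher was that of Tppp3, a microtubule-bundling protein, with 27.1 and 25.4 TPM in WT, 111 and 46.2 in Het and 103 and 87.0 in Hom libraries (Hom log2 difference 1.81, SE 0.36, limma adjusted p = 0.098). Its Het replicate 1 was high where motile cilia genes were also high.

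The Hom differences of the developmental genes kept their sign in all 14 alternatives tried for those listed by p, but their calls depended on the fit. Dcx, Tubb5, Tubb3, Dpysl5 and Stmn1 each passed with limma when either Het library was left out, with adjusted p from 0.0196 to 0.0388. None of them passed when any single WT or Hom library was left out, which leaves 1 library in a genotype being compared. After Het replicate 1 and Hom replicate 1, highest in Ttr, were left out, a setting chosen after seeing the data that leaves 1 library in each floxed genotype and takes it to vary like WT, 9 members passed: Dcx, Dpysl3, Dpysl4, Dpysl5, Stmn1, Stmn4, Tubb3 and Tubb5 lower and Tuba4a higher. There the Hom library was below both WT ones in 24 of 33 members, against 40.6% of all genes.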

How the data were processed

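The members, classes and lists were chosen with earlier results of these data known. Messenger RNA of 6 libraries was measured, 2 per genotype, grouped by their titles. Per the labels, RNA was selected with oligo(dT), made into TruSeq libraries, mapped to the mm10 build by TopHat 2.0.11 and passed to Cufflinks 2.2.1 with RefSeq transcripts. The submitters' processing notes instead name RSEM and FastQC with mm10 and GRCm38. The authors deposited 1 table of TPM values, each library summing to 1000000, so depth is unknown and no counting interval was computed.

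Values were used as log2(TPM + 1), which understates the change of low genes, for genes whose 6-library mean reached 1 TPM. All 6 libraries entered limma 3.58.1 (R 4.3.3, eBayes with a trend) with a term per genotype and 3 residual degrees of freedom, adjusted by Benjamini-Hochberg at 0.05. The linear trend over floxed alleles is, as a contrast of these terms, the same test as homozygous against wild type and is not given separately. The method was tested on simulated data, with a pass required only for changes far larger than any member showed. That check is no measure of how often differences of the members' size would pass. The SD beside a mean TPM is taken over its 2 libraries. All members may be named, and in each comparison up to 8 with the smallest p were given with a difference, and outside that rule, after their values were seen, Tuba1a, Tubb4b, Tuba4a, Map1a and Tubb4a. Of the further microtubule genes, up to 3 a direction with the smallest p were named. Gene positions came from GENCODE vM21 (GRCm38), transcript identity from BLAST 2.17.0 (at least 95% over 200 bases) and promoters from RefSeq. Alternatives were a pseudocount of 0.1, no filter, a mean of at least 5 TPM, rescaling by trimmed mean of M values (TMM), a replicate block, eBayes without a trend, fits of 2 genotypes only and leaving out libraries.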

Additional observations from a re-analysis of the deposited data

How the results depend on the processing

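Of 406 alternative values for single members, 373 kept their direction and side of the threshold, 33 passed where the reported fit did not, and 0 changed sign. Of 192 alternative counts and medians, 162 stayed close to the reported value and 30 moved. For medians, close meant a log2 shift under 0.258 (developmental) or 0.253 (mature), the SD of library medians within genotypes. Those limits are wide beside the reported medians, and counts that stayed at 0 were taken as close. The tally is therefore no measure of robustness. Why the 30 moved was not tested.

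The number of all genes passing in limma was 5 for heterozygous against wild type, 6 for homozygous against wild type and 2 between the floxed genotypes. With a pseudocount of 0.1 the first 2 counts were 49 and 149. With no filter on low values, which tests more genes, the counts were 1, 3 and 1, and eBayes without a trend gave 1 for the last. Fits of only the 2 genotypes gave 396 for homozygous against wild type. Leaving out 1 library at a time gave 3 to 391, 3 to 395 and 1 to 5. The low end came without wild type replicate 1 or 2 for the first and without wild type replicate 1 for the second, and both high ends without heterozygous replicate 2. Leaving out the 2 libraries with the most Ttr, chosen after seeing the data, gave 210, 713 and 45.

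The count of members passing for homozygous against wild type was 0 as reported, 4 with a pseudocount of 0.1, 5 with only the 2 genotypes, 0 to 5 without 1 library and 9 without the 2 Ttr libraries. For the other comparisons it was 0 in every alternative run. The count of members with every library below was 11 in place of 17 for heterozygous against wild type after TMM rescaling. For homozygous against wild type it was 17 in place of 21. Between the floxed genotypes it was 12 to 24 without 1 library, 24 without heterozygous replicate 1, and 24 without the 2 Ttr libraries. These alternatives of the counts of members below were also chosen after seeing the data.

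The genotypes share replicate numbers, and whether these pair the libraries was checked by correlating replicate 2 minus replicate 1 over genes. The correlation was 0.212 for wild type with heterozygous, -0.088 for wild type with homozygous and 0.345 for heterozygous with homozygous. These values differ in sign and do not settle whether libraries of the same number belong together. In each genotype the summed mature neuron markers were higher in replicate 2. With the replicate number as a block, 9 genes passed for heterozygous and 283 for homozygous against wild type, and 6 members passed in the latter (Dcx, Dpysl4, Dpysl5, Stmn1, Tubb3 and Tubb5).

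TPM carry no depth, and 2 libraries a genotype limit every error given.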
